A study of Mus musculus with 9 samples.

Results

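NF-kB is a family of transcription factors that act as pairs of subunits, and 9 genes of this system were followed in mouse lung cancer cells cultured with T cells. The 9 were picked by symbol and comprise the subunits Nfkb1, Nfkb2, Rela and Relb, the inhibitors Nfkbia, Nfkbiz and Tnfaip3, and the signalling proteins Birc3 and Traf1. All 9 are listed in both deposited tables, among 19305 genes listed in either. LLC1 cells are the Lewis lung carcinoma line of the mouse. They were kept for 24 h in contact with an equal number of T cells prepared as Th0, Th9 or Th17 cells, and the CD4+ cells were then removed by sorting. Total RNA of what remained was sequenced in 3 libraries per group, 9 in all. Th0 co-culture was the control, and LLC1 cells without T cells were not analysed here. The labels state neither how the T cells were made nor from which animals. They do not tell whether replicate libraries came from separate cultures, and the p-values therefore measure only the spread between these samples, which may be technical.

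In resting cells NF-kB dimers are held in the cytoplasm by inhibitors of the IkB family. Receptors for TNF, IL-1 family cytokines and IL-17 lead to IkB kinase, which marks IkB-alpha, the product of Nfkbia, for destruction and so frees Rela-containing dimers. This canonical arm switches on its own brakes, among them Nfkbia and the ubiquitin-editing enzyme A20, made by Tnfaip3. A slower non-canonical arm, driven by the kinase NIK (Map3k14), processes the Nfkb2 product p100 to p52, which pairs with RelB. In carcinoma cells the pathway is known for driving chemokines and survival genes.

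Each value below is a normalized count: the reads of a gene divided by a factor for its library, rounded to a whole number by the authors. Approximate reads recovered from these values came to between 12719478 and 17504852 per library. The library Th0 replicate 1 stood apart, with 31.1% of its reads on 3 RNA genes (mt-Rnr1, mt-Rnr2 and Gm26917) against 14.9% to 21.8% in the other 8 libraries. All 6 markers listed for LLC1 cells were present, with summed normalized counts of 68694 to 98584 in Th0 and 77324 to 80908 in Th9, where 3 of them (Krt8, Col1a1 and Sparc) were called lower than in Th0. Defining T cell genes were present too: the 28 T cell markers summed to 119 to 281 in Th0 and to 1668 to 2406 in Th9, although CD4+ cells had been sorted away. In the table with Th17, 18 of these markers are listed, and they summed to 118 to 271 in Th0 and 99 to 114 in Th17.

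With Th9 cells, 8 of the 9 genes were higher than with Th0 cells, and with Th17 cells none was called higher and only Nfkb2 was called lower. A call is a Benjamini-Hochberg adjusted p under 0.05 over all genes tested, from limma's moderated test on log2(value + 1). The calls with Th9 stand against a background of 13.4% of 14475 tested genes called higher. The 8 include Traf1, which reached the mean of 10 required for testing only through the Th9 libraries. With Th17, where 8 of the 9 were tested, 1.19% of 14342 tested genes were called higher and 0.39% lower. The Nfkb2 call was lost with libraries scaled to the same total and when some single libraries were left out. The T cell sum was higher in the same libraries, and its part in the calls was not tested. In a bulk library more cells of a type and more RNA per cell cannot be told apart. Before the values, the sequences ahead of some of these genes are shown.

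Nfkb1 lies on chromosome 3 from 135584655 to 135691547, Nfkb2 on chromosome 19 from 46304737 to 46312090, Rela on chromosome 19 from 5637483 to 5648130, and Relb on chromosome 7 from 19606217 to 19629438. Nfkbia lies on chromosome 12 from 55489411 to 55492647, Nfkbiz on chromosome 16 from 55811375 to 55838899, and Tnfaip3 on chromosome 10 from 19000910 to 19015657. Birc3 spans 7848699 to 7873186 on chromosome 9 and Traf1 spans 34941750 to 34961772 on chromosome 2. These are whole genes in GRCm38 (mm10) as the tables give them, and only Nfkb2 and Rela are on the plus strand.

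The kB motif is the DNA element that NF-kB dimers bind, and the brakes of the pathway are known for carrying it near their start sites. Promoter windows from RefSeq (GRCm38.p6, 250 bases before to 50 after a start site) matched 6 of the 9 genes, in 9 windows. No window was matched for Nfkb1, Relb and Nfkbiz. Each window was searched on both strands for 3 letter patterns. The first is GGGNN followed by TTTCC, the looser form, which contains it, is GGGNNN followed by TTCC, and the short form, which can overlap either, is GGANTTTCC. Shown are the 250 bases before the start for 3 genes that hold matches and, for contrast, for Rela and Traf1, which hold none, each 5′ to 3′ on the gene's own strand with the motif matches in capitals.
Nfkbia, chr12:55492648-55492897, minus strand: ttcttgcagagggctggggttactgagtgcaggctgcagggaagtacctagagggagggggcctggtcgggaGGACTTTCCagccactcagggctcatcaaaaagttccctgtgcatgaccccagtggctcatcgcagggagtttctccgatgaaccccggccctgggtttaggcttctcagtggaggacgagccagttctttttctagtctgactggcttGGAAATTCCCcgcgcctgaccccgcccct
Tnfaip3, chr10:19015411-19015660, minus strand: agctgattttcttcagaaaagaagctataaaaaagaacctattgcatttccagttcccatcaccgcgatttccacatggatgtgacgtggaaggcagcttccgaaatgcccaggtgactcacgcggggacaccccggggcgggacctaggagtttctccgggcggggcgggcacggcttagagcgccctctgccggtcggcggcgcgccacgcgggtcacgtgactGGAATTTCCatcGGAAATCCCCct
Nfkb2, chr19:46304487-46304736, plus strand: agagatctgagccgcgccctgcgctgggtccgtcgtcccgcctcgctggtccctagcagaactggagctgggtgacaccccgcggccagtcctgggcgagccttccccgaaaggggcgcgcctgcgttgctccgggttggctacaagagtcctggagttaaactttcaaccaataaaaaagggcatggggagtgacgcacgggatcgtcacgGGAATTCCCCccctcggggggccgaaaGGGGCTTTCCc
Rela, chr19:5637291-5637540, plus strand: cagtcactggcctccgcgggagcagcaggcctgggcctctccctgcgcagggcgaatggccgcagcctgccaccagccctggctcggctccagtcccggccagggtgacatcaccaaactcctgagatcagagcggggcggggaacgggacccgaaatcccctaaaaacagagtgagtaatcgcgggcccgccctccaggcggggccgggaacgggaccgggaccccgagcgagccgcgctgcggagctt
Traf1, chr2:34961773-34962022, minus strand: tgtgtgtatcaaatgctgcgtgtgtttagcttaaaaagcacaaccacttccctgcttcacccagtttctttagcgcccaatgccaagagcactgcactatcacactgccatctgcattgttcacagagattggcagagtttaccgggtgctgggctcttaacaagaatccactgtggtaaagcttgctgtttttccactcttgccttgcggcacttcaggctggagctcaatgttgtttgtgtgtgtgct

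The Nfkbia window held GGGAATTTCC on the opposite strand, 29 bases before the start site, and GGACTTTCC on its own strand, 178 bases before it. In the Tnfaip3 window GGAATTTCC began 24 bases and GGGGATTTCC, on the opposite strand, 12 bases before the start. The Nfkb2 window held GGGGAATTCC on the opposite strand at 38 bases and GGGGCTTTCC at 11 bases. A pair of further Nfkb2 start sites lies downstream, and their overlapping windows share 1 GGGACTTTCC. The first pattern was found in 5 of the 9 windows and in 1.63% of all 32851 promoter windows of the same length. The looser form was found in 6 of the 9 against 5.56% of all, and the short form in 4 of the 9 against 1.25%. These windows are not independent, because Nfkb2 has several and Tnfaip3 has a second, where only the looser form matched. The GGGACTTTCC shared by overlapping Nfkb2 windows is counted in each of them under all 3 patterns. Counted by gene, each pattern was found for Nfkb2, Nfkbia and Tnfaip3, of the 6 genes with a window. The windows of Rela, Birc3 and Traf1 held none of the 3 letter patterns. A match describes letters and not binding, which was not measured.

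Among the subunits, Nfkb1 encodes p105, the precursor of p50, and had normalized counts of 1190, 1214 and 1233 in the Th0 libraries and 2059, 2058 and 1966 in the Th9 libraries. The groups did not overlap, and the 3 libraries within each lay close together. Nfkb1 rose 1.67-fold, a log2 difference of 0.74 (SE 0.08, limma adjusted p = 2.89e-05). Nfkb2, which encodes p100, stood at 1094, 1217 and 1175 with Th0 and at 2062, 1923 and 2425 with Th9. Every Th9 library lay above every Th0 library, with Th9 replicate 3 the highest. The Nfkb2 rise was 1.83-fold, or 0.87 on the log2 scale (SE 0.10, limma adjusted p = 5.38e-05).

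Relb, the partner of p52 in the non-canonical arm, was the least abundant of the 4 subunits per transcript length and showed the largest rise among them. Its normalized counts were 110, 103 and 100 in Th0 and 306, 261 and 236 in Th9. All 3 Th9 libraries were above all Th0 libraries, and replicate 1 was the highest within both groups. The change was 2.54-fold, a log2 difference of 1.34 (SE 0.13, limma adjusted p = 1.92e-05). Rela encodes p65, the main activating subunit of the canonical arm. It had values of 691, 741 and 752 with Th0 and 888, 853 and 811 with Th9. The groups did not overlap, but the gap between them was narrow. The log2 difference of Rela was 0.22 (95% interval 0.04 to 0.40, fold 1.17), which did not pass after adjustment (limma adjusted p = 0.0654). Rela passed when libraries were scaled to the same total without the 3 RNA genes (0.27, limma adjusted p = 0.016) and with weights for library quality (0.20, limma adjusted p = 0.0191). With those weights the Rela difference was no larger, and 3302 of all genes were called higher against 1937 without them.

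Nfkbia, which encodes the inhibitor IkB-alpha, had nearly the same value in the 3 Th0 libraries, 322, 324 and 321. The Th9 libraries held 1720, 1565 and 1349. There was no overlap, and the lowest Th9 library stood far above the highest Th0 library. Nfkbia was 4.76-fold higher, a log2 difference of 2.25 (SE 0.10, limma adjusted p = 3.2e-08). Of the 14475 genes tested, 174 (1.2%) were called higher with a log2 difference at least as large as that of Nfkbia.

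Nfkbiz encodes IkB-zeta, an IkB protein of the nucleus that helps NF-kB to switch on a subset of targets, and it is a known target of IL-17 signalling. Its values were 591, 508 and 469 in Th0 and 998, 1159 and 1095 in Th9. The groups were apart, and Th0 replicate 1 was the highest of the controls. The rise of Nfkbiz was 2.08-fold, or 1.05 in log2 (SE 0.10, limma adjusted p = 1.87e-05). Tnfaip3, whose product A20 removes ubiquitin chains from signalling proteins, had 101, 98 and 105 in Th0 and 315, 269 and 253 in Th9. Again no Th9 library fell into the range of Th0. Tnfaip3 rose 2.73-fold (log2 1.45, SE 0.12, limma adjusted p = 8.52e-06).

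Birc3 encodes cIAP2, a ubiquitin ligase that sits with TRAF proteins at TNF receptors, and it was among the least abundant of the 9 per transcript length. It was counted at 25, 28 and 28 in Th0 and at 64, 61 and 57 in Th9. The groups were clearly apart. Birc3 rose 2.20-fold (log2 1.14, SE 0.20, limma adjusted p = 0.00143). Traf1 encodes an adaptor of TNF receptor complexes that lymphocytes also use. It was almost absent with Th0, at 8, 5 and 5, and reached 136, 150 and 108 with Th9. By these values the Th0 libraries together held 17 approximate reads of Traf1. Its log2 difference of 4.25 (SE 0.26, fold 19.1, limma adjusted p = 6.85e-07) was the largest among the 9 genes.

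Of the 9 genes, all had Th9 values above the range of Th0, where 21.4% of all tested genes did. Their median log2 difference was 1.14 and the median of all tested genes was -0.01. Traf1, tested only through its Th9 values, is included in this count and this median. The 8 calls were kept under each alternative processing in which the gene was tested and with each library left out in turn. Birc3 was below a stricter minimum mean of 50. The plot of values by library shows these gaps gene by gene.

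**Figure D1:**
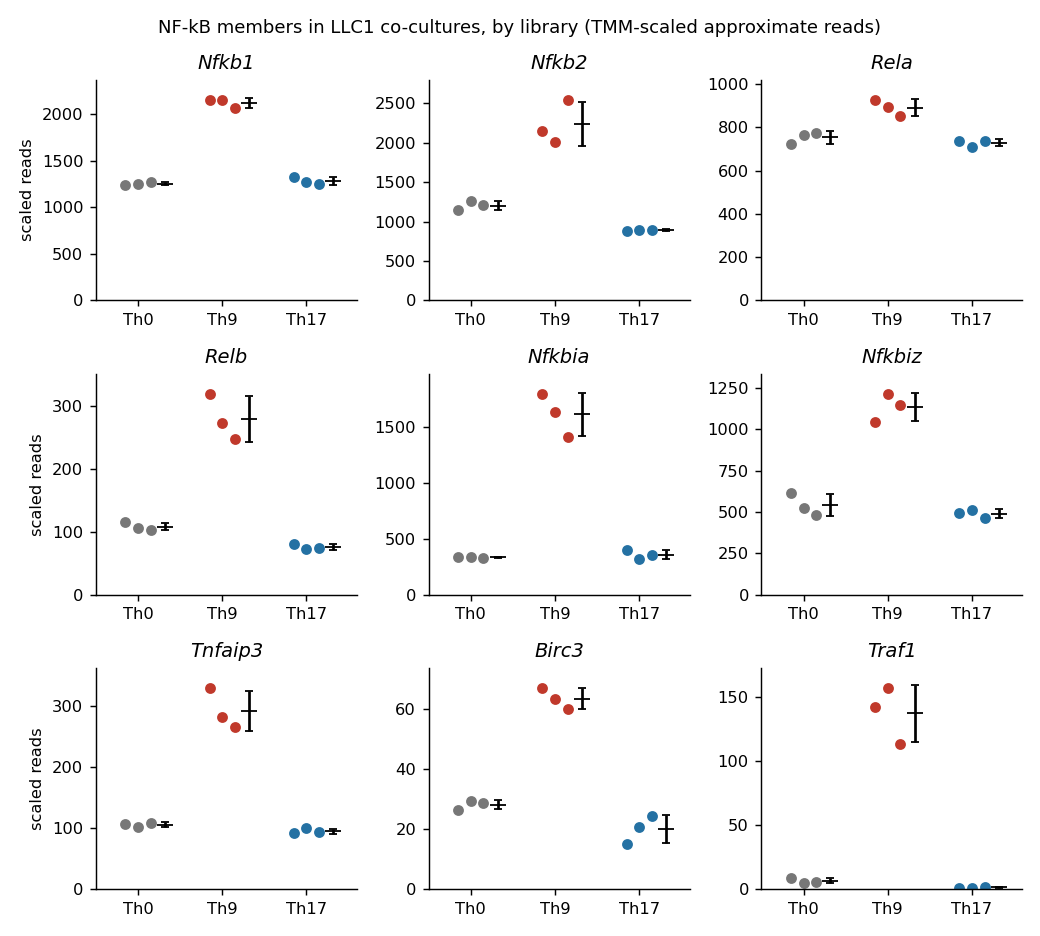
Approximate reads of each of the 9 genes, brought to 1 scale over both tables by TMM factors (y axis, from 0), for the 3 libraries of Th0, Th9 and Th17 (x axis). Each point is a library and each line the mean of its group: the Th9 points lie above all Th0 and Th17 points in each panel, narrowly so for Rela.

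With Th17 cells the question was whether the same genes moved. Values here come from the table with Th17, which was normalized on its own and lists the same Th0 libraries with slightly different numbers, so both comparisons share their controls. Of all 14342 genes tested, 0.39% were called lower and 1.19% higher than with Th0. Of the 9 members 8 were tested, 1 was called lower and none higher. Traf1 fell below the mean of 10 required for testing.

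Nfkb2 was the member called, with 1126, 1243 and 1206 in Th0 and 866, 884 and 885 in Th17. The Th17 libraries were close together and all lay below the controls. Nfkb2 fell by 0.44 on the log2 scale (SE 0.07, limma adjusted p = 0.015), a value 1.36-fold lower. The call was lost with libraries scaled to the same total (log2 -0.415, limma adjusted p = 0.134). It was also lost without Th0 replicate 3 (limma adjusted p = 0.0803) and without Th17 replicate 1, 2 or 3 (limma adjusted p = 0.122, 0.0986 and 0.12).

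Relb, at 114, 106 and 103 in Th0, was at 80, 71 and 73 in Th17. There was no overlap, and its log2 difference of -0.52 (95% interval -0.82 to -0.22) did not pass (limma adjusted p = 0.0868). It passed without Th0 replicate 1 (-0.48, limma adjusted p = 0.0379), where 9.7% of genes were called lower, and with weights for library quality (-0.49, limma adjusted p = 0.00916), where 12.5% were. Nfkb1 had 1224, 1240 and 1266 against 1313, 1252 and 1231 with Th17, and Rela had 711, 757 and 772 against 731, 699 and 727. For both genes the groups overlapped. The log2 difference was 0.02 for Nfkb1 (95% interval -0.13 to 0.18, limma adjusted p = 0.888) and -0.05 for Rela (95% interval -0.22 to 0.11, limma adjusted p = 0.755).

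The brakes did not pass the test with Th17 cells. Nfkbia had 331, 331 and 329 in Th0 and 397, 312 and 353 in Th17. The Th17 libraries lay on both sides of the controls. Its log2 difference of 0.09 had a 95% interval of -0.13 to 0.32 (limma adjusted p = 0.689). Nfkbiz overlapped too, at 608, 519 and 481 in Th0 and 488, 505 and 459 in Th17 (log2 -0.14, interval -0.36 to 0.08, limma adjusted p = 0.492). Tnfaip3 stood at 104, 100 and 108 against 90, 98 and 92, which did not overlap but were close (log2 -0.15, interval -0.44 to 0.13, limma adjusted p = 0.578). So the intervals of Nfkbia, Nfkbiz and Tnfaip3 in this comparison all included 0 and ended well short of the rises measured with Th9.

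Birc3 had 26, 29 and 28 in Th0 and 15, 20 and 24 in Th17. The Th17 libraries were lower and more scattered, and the log2 difference of -0.49 (interval -1.07 to 0.08) did not pass (limma adjusted p = 0.35). Traf1 had 8, 6 and 5 in Th0 and 1, 1 and 2 in Th17. By the values of the table with Th17, the Th0 libraries held 18 approximate reads of Traf1 and the Th17 libraries 4. These give a ratio of 0.194, with an exact 95% interval of 0.0478 to 0.589 that covers counting error only. Without the filter on low values the log2 difference of Traf1 was -1.66 (limma adjusted p = 0.15). Among the 8 tested members, Nfkb2, Relb, Tnfaip3 and Birc3 had all Th17 values below the range of Th0, where 10.6% of all tested genes did. The median log2 difference of the 8 was -0.15.

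Whether Th17 and Th9 co-cultures differed was tested directly on approximate reads of both tables on 1 scale, with all 9 libraries in the model. All 9 members were lower with Th17 than with Th9, where 11.2% of 14453 genes tested were called lower. All 9 also had no overlap between these groups, where 22.9% of genes were lower without overlap. The log2 differences were -0.73 for Nfkb1, -1.32 for Nfkb2, -0.29 for Rela and -1.86 for Relb. They were -2.17 for Nfkbia, -1.21 for Nfkbiz, -1.61 for Tnfaip3, -1.64 for Birc3 and -5.95 for Traf1. Traf1 again reached the mean required for testing only through the Th9 libraries, so its call was nearly given by the filter. Its difference ranged from -6.34 to -4.50 over the alternative processings and left-out libraries. Rela, the subunit that did not pass between Th9 and Th0, passed here with the smallest difference (SE 0.07, limma adjusted p = 0.00725). Expressed as levels, Rela stood at 729 ± 15.7 (SD, n = 3) scaled reads with Th17 and 890.3 ± 38.2 (SD, n = 3) with Th9. Nfkbia, at 359 ± 41.9 against 1616 ± 192 (SD, n = 3 each), was 4.49-fold lower with Th17 (limma adjusted p = 1.29e-09). The median difference of the 9 was -1.61. T cell markers moved with them: 15 of 17 tested were called lower with Th17 than with Th9 (median log2 -4.17), and their part in the differences of the members was not tested. All 9 calls were kept with each library left out and under every alternative in which the gene was tested, Birc3 and Traf1 being below the minimum mean of 50.

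**Figure D2:**
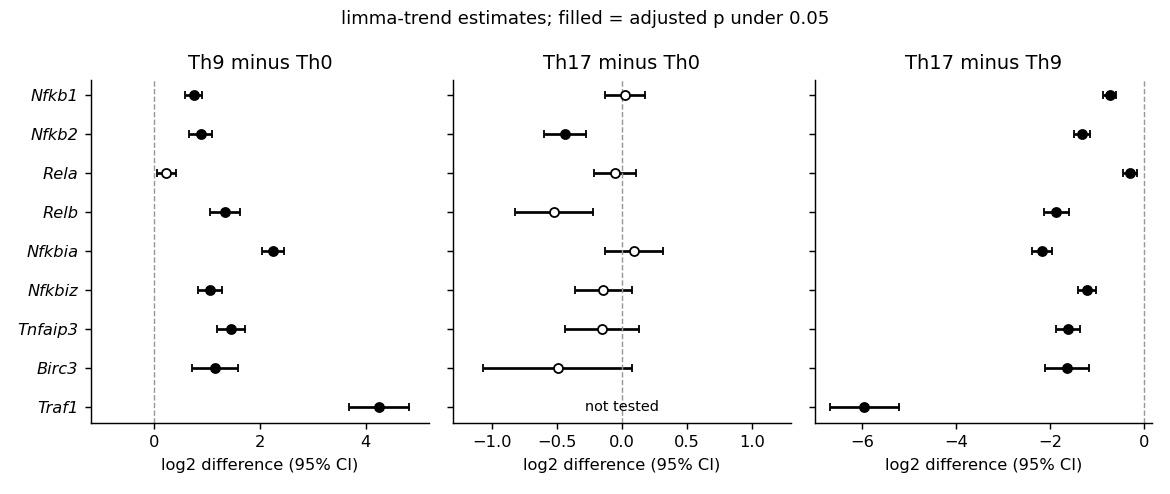
Log2 difference of each of the 9 genes (x axis, points, with 95% intervals as lines) for Th9 minus Th0, Th17 minus Th0 and Th17 minus Th9, filled where the adjusted p was under 0.05. The points of the first panel lie to the right of 0, from 0.22 for Rela to 4.25 for Traf1, those of the second lie near 0 or to its left, and those of the third lie to the left.

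Levels of different genes can be compared only per length, here as normalized counts per 1000 bases of the longest principal transcript in GENCODE M21. With Th0 cells Nfkb2 stood highest at 370 per kb, followed by Nfkb1 at 294, Rela at 268, Nfkbia at 204 and Nfkbiz at 127. Relb at 47.2, Tnfaip3 at 22.9, Birc3 at 10.1 and Traf1 at 1.75 were far lower. With Th9 the inhibitor gene Nfkbia came first at 979 per kb, ahead of Nfkb2 at 680.2, Nfkb1 at 493, Rela at 313, Nfkbiz at 263, Relb at 121, Tnfaip3 at 63.1, Traf1 at 38.2 and Birc3 at 22.7. With Th17 the order was Nfkb1 at 307, Nfkb2 at 279.6, Rela at 265, Nfkbia at 224, Nfkbiz at 118, Relb at 33.8, Tnfaip3 at 21.1, Birc3 at 7.37 and Traf1 at 0.388. Between no pair of neighbours in these orders did the ranges over 3 libraries overlap. These orders depend on the length used. Over the union of all annotated exons, Nfkb1 with Th0 was 101 per kb, below Nfkbiz at 104, and the order with Th17 began with Rela at 234, Nfkbia at 219.9, Nfkb2 at 192 and Nfkb1 at 105. Nfkbia was first with Th9 by either length.

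The makeup of the subunit transcripts can be read within a library, where no scaling between libraries enters. Of the summed level per kb of Nfkb1, Nfkb2, Rela and Relb, Rela made up 27.0% to 27.8% in the Th0 libraries, 18.0% to 20.3% with Th9 and 29.4% to 30.4% with Th17. Relb made up 4.55% to 5.30% with Th0, 6.45% to 8.53% with Th9 and 3.66% to 4.04% with Th17. Nfkb2 took 37.0% to 38.7% with Th0, 39.6% to 46.6% with Th9 and 30.6% to 32.2% with Th17. So the share of Rela was lowest and those of Relb and Nfkb2 were highest in the Th9 libraries, with no overlap between groups. Nfkb1 took 29.4% to 30.7%, 28.9% to 32.4% and 33.9% to 35.4% in the same order, and its Th0 and Th9 ranges overlapped. The shares depend on the length used: over the union of exons, chosen after seeing the data, Nfkb1 took 15.9% to 16.7% and Rela 38.1% to 38.9% with Th0. The order of the groups was kept for Rela (26.0% to 29.7% with Th9, 42.0% to 43.0% with Th17), Relb and Nfkb2 by that length.

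**Figure D3:**
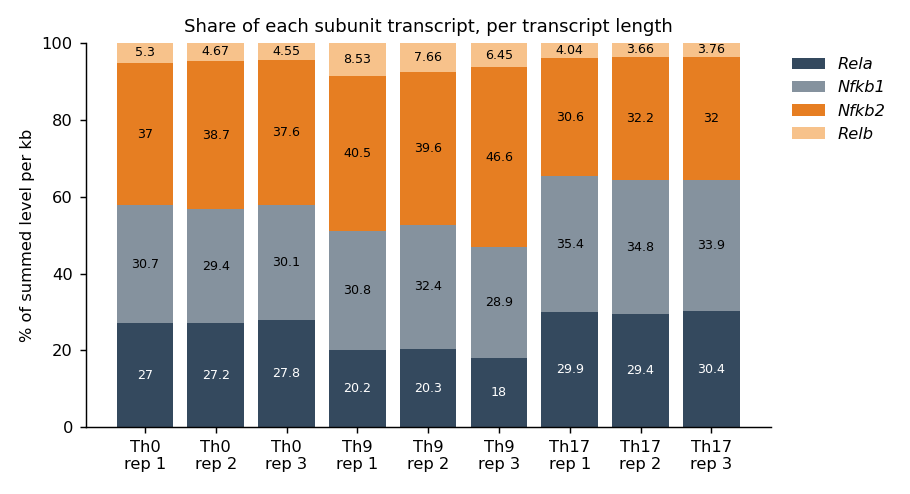
Share of Nfkb1, Nfkb2, Rela and Relb in their summed level per 1000 bases (y axis, percent), 1 bar per library (x axis). The Rela part is thinnest in the 3 Th9 bars, at 18.0% to 20.3%, and the Nfkb2 part is smallest in the 3 Th17 bars, at 30.6% to 32.2%.

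Ratios of inhibitor to subunit were taken in the same libraries, with the same transcript lengths. Nfkbia per kb was 0.763 ± 0.0352 times Rela with Th0, 3.12 ± 0.239 times with Th9 and 0.846 ± 0.0836 times with Th17 (SD, n = 3 each). The Th9 libraries, at 2.86 to 3.34, lay above all others, while the Th0 and Th17 ranges overlapped. The inhibitors did not keep their proportions: Tnfaip3 per kb was 0.112 ± 0.00476 times Nfkbia with Th0 and 0.0646 ± 0.00289 times with Th9 (SD, n = 3 each). Nfkbiz was 0.622 ± 0.0739 times Nfkbia with Th0 and 0.273 ± 0.0455 times with Th9 (SD, n = 3 each). Nfkb2 and Nfkb1, the precursors of p52 and p50, had a ratio per kb of 1.26 ± 0.0544 with Th0 and 1.38 ± 0.206 with Th9, which overlapped, and of 0.911 ± 0.0409 with Th17, which was below both (SD, n = 3 each).

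Within the Th9 group, replicate 1 had the highest value of 6 of the 9 genes, namely Nfkb1, Rela, Relb, Nfkbia, Tnfaip3 and Birc3. The coefficient of variation over the 3 Th9 libraries ran from 2.63% for Nfkb1 to 16.3% for Traf1, with Relb at 13.3%, Nfkb2 at 12.1%, Nfkbia at 12.1% and Tnfaip3 at 11.5%. Nfkb2 was highest in replicate 3, whereas Nfkbia, Relb and Tnfaip3 were lowest there. Of the 9, those 6 genes ran from replicate 1 over 2 to 3 from high to low, which is also the order of the T cell marker sums (2406, 2015 and 1668), and Nfkb2, Nfkbiz and Traf1 did not. For Nfkb1 this rests on 2059 against 2058, and in scaled reads replicate 2 was above replicate 1 (2154.78 against 2149.64). How many of all tested genes ran in this order was not counted, and a link to the T cell sum was not tested.

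T cell RNA moved with the Th9 group. The 28 T cell markers summed to 281, 152 and 119 in Th0 replicates 1 to 3 and to 2406, 2015 and 1668 in Th9 replicates 1 to 3. Of these markers 22 were tested and 19 were called higher, where 13.4% of all tested genes were. Many of these, Cd3g among them, reached the mean required for testing only through the Th9 libraries. Cd3g, which encodes CD3 gamma, had 8, 5 and 2 in Th0 and 352, 346 and 254 in Th9. The pan-leukocyte gene Ptprc had 51, 25 and 6 in Th0 and 551, 447 and 401 in Th9. Cd4, the marker used for the sort, had 10, 8 and 18 in Th0 and 23, 23 and 17 in Th9 and did not pass (limma adjusted p = 0.114), and Cd6, Trbc1 and Sh2d1a were listed at 0 in all Th0 libraries. Sums of B cell markers (41 to 93 in Th0, 42 to 54 in Th9) and myeloid markers (171 to 325 and 213 to 269) overlapped between the groups. Of the 4 myeloid markers tested, Lyz2 was called lower with Th9 (33, 15 and 11 to 0, 2 and 1, limma adjusted p = 0.00163) and Cd14 higher (41, 37 and 26 to 67, 63 and 58, limma adjusted p = 0.0135). The Cd14 call was lost without Th0 replicate 3 or without Th9 replicate 1 or 2 (limma adjusted p = 0.0537, 0.0716 and 0.0563). T cells use the same NF-kB genes, and the part of T cell RNA in the rises of the 9 members was not tested.

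Over the Th9 libraries, Nfkbia (1720, 1565 and 1349), Relb (306, 261 and 236), Tnfaip3 (315, 269 and 253), Rela and Birc3 were ordered like the T cell sum, as was Rel. Nfkb1 was so ordered in normalized counts but not in scaled reads. The share of all tested genes in this order was not counted. Over the Th0 libraries, where that sum ranged from 119 to 281, Nfkbia lay between 321 and 324 and Tnfaip3 between 98 and 105. Relb, Nfkbiz and Traf1 were highest in Th0 replicate 1, the library with the highest T cell sum and the largest share of the 3 RNA genes. In the table with Th17, none of the 6 tested T cell markers was called, where 1.19% of all tested genes were called higher and 0.39% lower. Cd3g had 0, 1 and 0 in the Th17 libraries.

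**Figure D4:**
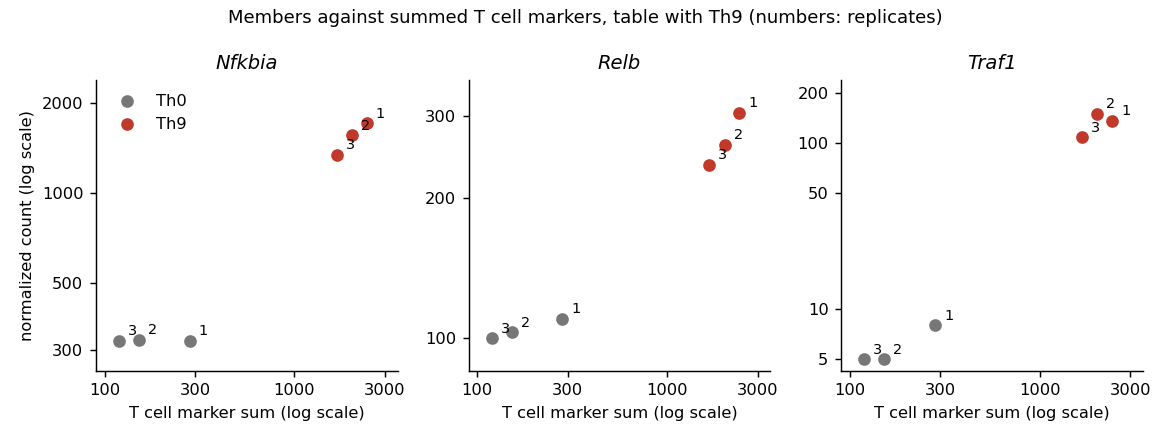
Normalized counts of members (y axes, log scale) against the summed T cell markers of the same library (x axis, log scale) in the table with Th9, each point a library with its replicate number. Th0 and Th9 libraries form separate clouds on the x axis, at 119 to 281 and 1668 to 2406, and Nfkbia is level over the Th0 libraries (321 to 324) and ordered like the T cell sum over the Th9 libraries (1720, 1565 and 1349).

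The other genes of the pathway were counted from lists set up by role, chosen like the 9 members with earlier results of these data known. Rel, the remaining subunit, best known from lymphocytes, had 102, 99 and 91 in Th0 and 253, 213 and 190 in Th9, a log2 rise of 1.15 (SE 0.14, limma adjusted p = 0.000101). All 3 tested IkB genes were called higher with Th9, as were 13.4% of all genes. Bcl3, a nuclear IkB protein that works with p50 and p52, was at 31, 19 and 26 in Th0 and at 105, 100 and 67 in Th9, a log2 difference of 1.80 (SE 0.25, limma adjusted p = 0.000245). Nfkbie and Nfkbib, which encode IkB-epsilon and IkB-beta, rose by 0.99 and 0.51 in log2 (limma adjusted p = 0.00133 and 0.00925). Nfkbid was too low to be tested.

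Of 16 further feedback genes, 7 were called higher and 1 lower with Th9, against 13.4% higher and 11.9% lower over all genes tested. The early response gene Ier3 rose by 1.23 in log2 (SE 0.11), Zc3h12a, which encodes the RNA-degrading Regnase-1, by 1.17 (SE 0.15), the deubiquitinase gene Cyld by 0.60 (SE 0.09) and Tnip1, a partner of A20, by 0.55 (SE 0.11). Pdlim2, whose product promotes the breakdown of p65, fell by 0.57 in log2 (SE 0.10, limma adjusted p = 0.00169).

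Among 12 kinase genes, 5 were called higher and 2 lower with Th9, where 13.4% and 11.9% of all genes were. Ikbke, which encodes the inducible IKK-epsilon, rose by 1.47 in log2 (SE 0.12, limma adjusted p = 5.89e-06). Its values were 377, 285 and 329 in Th0 and 793, 939 and 1021 in Th9, without overlap. Map3k14, the gene of the non-canonical kinase NIK, moved the other way, from 360, 340 and 342 in Th0 to 206, 221 and 234 in Th9. All Th9 libraries were lower, and Map3k14 fell by 0.66 in log2 (SE 0.10, limma adjusted p = 0.000558), while Nfkb2 and Relb of the same arm rose. Ikbkb, the canonical kinase gene, was called with a log2 difference of 0.30 (limma adjusted p = 0.0172), which was lost without Th0 replicate 3 or any 1 of the Th9 libraries (limma adjusted p = 0.0666 to 0.074). Chuk and Ikbkg did not pass.

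Of 23 adaptor genes tested, 6 were called higher and 2 lower with Th9, beside 13.4% and 11.9% of all genes. Traf5 fell by 0.82 in log2 (SE 0.12, limma adjusted p = 0.000335). Traf2 and Birc2, the usual partners of Traf1 and Birc3, did not pass, with log2 differences of 0.27 (limma adjusted p = 0.1) and -0.00 (limma adjusted p = 0.991).

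At the receptor level, 4 of 12 tested genes were called higher and none lower with Th9 (13.4% and 11.9% of all genes). Il1rap, the shared chain of IL-1 family receptors, rose by 1.67 in log2 (SE 0.10, limma adjusted p = 4.85e-07). Il1rl1, the receptor of IL-33, rose by 1.17 (SE 0.10, limma adjusted p = 7.25e-06). Tnfrsf1a, the main TNF receptor of non-immune cells, was called at 0.36 (limma adjusted p = 0.0241), which was lost without Th9 replicate 1, 2 or 3 (limma adjusted p = 0.0527, 0.121 and 0.0739). The IL-17 receptor gene Il17ra did not pass in either comparison with Th0 (log2 0.28 and -0.20, limma adjusted p = 0.0607 and 0.301). It was called higher with Th9 under a minimum mean of 50 (limma adjusted p = 0.0497), the same total per library (0.0453), the same total without the 3 RNA genes (0.0287) and without Th0 replicate 1 (0.0453). With array weights Il17ra was called lower with Th17 (limma adjusted p = 0.0281), where 12.5% of all tested genes were. Among the ligands, Il33 rose by 3.91 (SE 0.25, limma adjusted p = 8.79e-07) and Ltb, a lymphotoxin gene of lymphocytes, by 3.86 (SE 0.59, limma adjusted p = 0.00055). Tnf, too low to be tested, was listed at 0 in the Th0 libraries and at 1, 6 and 3 in the Th9 libraries.

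Of the known NF-kB targets outside the 9, 14 of 18 tested were called higher and none lower with Th9 (13.4% and 11.9% of all genes), with a median log2 difference of 1.19. Among them Ccl7, Mmp9, Lcn2, C3 and Saa3, with Th0 means of 0.33 to 5.33, reached the mean of 10 only through the Th9 libraries. Their calls were therefore nearly given by the filter, and they raise both the count and the median. The chemokine gene Ccl2 went from 193, 231 and 165 to 3879, 4203 and 3502 (log2 4.30, SE 0.12, limma adjusted p = 1.12e-09), and Cxcl1 from 83, 117 and 99 to 977, 1170 and 1294 (log2 3.52, SE 0.14, limma adjusted p = 1.23e-08). The groups were far apart for both genes. With Th17 cells no target of 12 tested was called, a smaller set without Ccl7, Mmp9, Lcn2, C3 and Saa3, which were unlisted or too low there. Ccl2 had 199, 236 and 169 in Th0 and 205, 204 and 172 in Th17.

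With Th17, 1 pathway gene outside the 9 was called over all role lists, near the share of all genes tested (1.19% higher, 0.39% lower). Tested were Rel, 3 IkB genes, 15 feedback genes, 12 kinases, 22 adaptors, 11 receptors, 1 ligand and 12 targets. It was Nlk, the gene of a MAP kinase-like regulator, which rose by 0.67 in log2 (SE 0.08, limma adjusted p = 0.00519), and the call was lost without Th17 replicate 1 or 3 (limma adjusted p = 0.0585 and 0.0544). Nlk was also called with Th9 (log2 0.83, limma adjusted p = 0.000128), and the difference between Th17 and Th9 did not pass (log2 -0.16, limma adjusted p = 0.24). Rel did not pass between Th17 and Th0 (log2 0.04, limma adjusted p = 0.922). In the tables' own KEGG annotation, the NF-kappa B signaling pathway had 25 of 69 tested genes called higher and 6 lower with Th9, where 13.4% and 11.9% of all genes were. With Th17 it had 0 higher and 1 lower of 62, where 1.19% and 0.39% of all genes were. That term holds 8 of the 9 members, all but Nfkbiz.

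**Figure D5:**
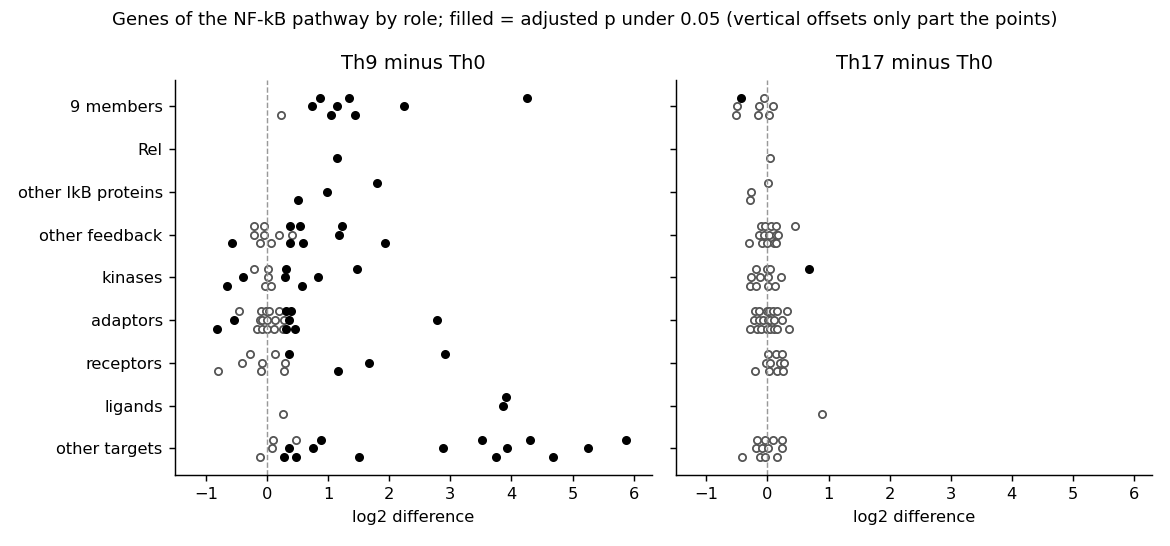
Log2 difference (x axis) of the 9 members and of other pathway genes, 1 point per gene, in rows by role, for Th9 minus Th0 and Th17 minus Th0, filled where the adjusted p was under 0.05. In the left panel the points of the IkB row and most of the target row are filled and to the right of 0, while kinases, adaptors and receptors spread around 0; in the right panel few points are filled.

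Genes outside the 9 whose pattern came closest to a member were found over the 9 libraries, by the mean absolute difference in log2 scaled reads after subtracting each gene's Th0 mean. Nfkb1 was closest to Vegfa (0.0433), which encodes the main vascular growth factor, and Nfkb2 to Areg (0.106), which encodes the EGF receptor ligand amphiregulin. Nfkbia was closest to Trib3 (0.137), a pseudokinase gene, and Nfkbiz had Zc3h12a among its 3 closest genes (0.108). Rela was closest to Ubox5 (0.0286), Relb to Pik3cd (0.146), Tnfaip3 to Kif21b (0.0922) and Birc3 to Stx11 (0.132). Traf1 had the loosest matches, Satb1 (0.213), Cytip (0.359) and Laptm5 (0.554), and these 3 genes are known for expression in lymphocytes. Whether genes closest to other members, such as Pik3cd and Stx11, are also expressed in lymphocytes was not examined. These are distances between patterns in 9 libraries that share their groups and depth, and no test was made of them.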

How the data were processed

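Total RNA of LLC1 co-cultures was sequenced in 9 libraries (3 each of Th0, Th9 and Th17). Per the submitters' processing notes, the tools were DESeq2 1.62, STAR 2.4.0a and Subread's featureCounts 1.4.5-p1, and the builds GRCm38 and mm10, with no roles given. The 2 deposited tables hold scores, namely normalized counts that the authors rounded (18816 genes with Th9, 18511 with Th17, 18022 in both), each normalized on its own and both holding the Th0 libraries. Whether counting used the strand is not given in the sources used here, so overlapping genes may share reads. No column of values was left unused (0).

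From these, approximate reads were recovered as value times a size factor read from the steps of the values. Between 63.6% and 99.97% of a library's values allowed 1 read number. The Th0 reads of both tables were equal within 1 read for at least 99.93% of genes. limma-trend (limma 3.58.1, R 4.3.3) was run on log2(value + 1), group as the only term, keeping genes whose mean reached 10, with Benjamini-Hochberg adjustment over all genes and calls under 0.05. Th17 was compared with Th9 on approximate reads scaled by TMM (trims of 30% and 5%). The script was tested on simulated data.

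The members and lists were chosen with earlier results of these data known. Named are the 9 members, up to 4 called genes per list with the smallest adjusted p, a set list of pathway and T cell genes, and the 3 genes closest to each member. Alternatives were other pseudocounts, filters and scalings, array weights, limma-voom, a replicate block and leaving out each library. Motifs were searched in RefSeq promoters. Some listed genes are not reported here by name.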

Additional observations from a re-analysis of the deposited data

How the results depend on the processing

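Between Th9 and Th0 the 8 members called higher kept their calls, and between Th17 and Th9 the 9 called lower kept theirs, under every alternative in which they were tested. With a minimum mean of 50, Birc3 was not tested in either, nor Traf1 in the latter. Rela joined the 8 with array weights and with an equal total without the 3 RNA genes. Over all genes, the calls for Th9 against Th0 (1937 higher, 1716 lower) became 3302 and 3326 with array weights, and 794 lower with libraries scaled to the same total. For Th17 against Th0 (170 higher, 56 lower) they became 1572 and 1789 with array weights, 345 and 102 when the 3 RNA genes were left out of an equal total, and 20 lower with the same total. Members called lower there (1) became 0 with the same total and 2 with array weights. For Th17 against Th9 (1396 higher, 1620 lower) they became 2463 and 2532 with array weights, and 683 higher with the same total. The cause was not tested.

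Leaving out each library in turn gave 1015 to 2594 higher and 838 to 2742 lower for Th9 against Th0, 14 to 974 and 2 to 1378 for Th17 against Th0, and 869 to 2200 and 1137 to 2345 for Th17 against Th9. The members called lower with Th17 ranged from 0 to 2. The difference of Nfkb1 between Th17 and Th0, 0.025 in log2, ranged from -0.002 to 0.044 and was below 0 without Th17 replicate 1. Same-numbered libraries did not deviate together throughout (correlations 0.11, -0.011 and 0.15 with Th9, -0.055, -0.079 and 0.039 with Th17). With Th9, replicates 1 and 3 had larger correlations than any differently numbered libraries (-0.135 to 0.040). With 3 libraries per group these values cannot decide whether the numbers pair the samples. A replicate block gave 2114 higher and 1962 lower, 186 and 76, and 1347 and 1584 calls in the same order of comparisons, with 8, 1 and 9 members called as before. Depth limits Traf1, with 4 approximate reads in the Th17 libraries together.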
